A study of Mus musculus with 82 samples.

Results

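Of 116395 merged H3K27ac regions found across a time course of mouse stembryos, 1620 (1.39%) lay away from annotated transcription starts and were called at every one of 9 stages between 48 h and 168 h of culture. Stembryos, or gastruloids, are aggregates of embryonic stem cells that receive a pulse of Chiron, a Wnt agonist, between 48 h and 72 h and then elongate into a structure resembling the posterior body. The regions were chosen by the H3K27ac calls themselves. All regions of the 9 unnumbered wild-type (wt) lists, taken at 48, 72, 84, 96, 108, 120, 132, 144 and 168 h, were merged, and a merged region was retained when every list overlapped it and when no start in GENCODE vM21 (mm10) lay within 2.5 kb. They are called kept distal regions here. They made up 2.00% of the 80991 distal regions and 12.9% of the 12520 regions kept at all stages, of which the other 10900 were proximal to a start. The remaining 79371 distal regions (other distal regions) and the 10900 proximal kept regions served for comparison. Presence, length and height of H3K27ac in the 9 lists therefore describe the selected regions and are not results.

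The readouts that did not choose the regions came from separate libraries. From Del(CBS1) and Del(CBS1-2) stembryos and from wt stembryos, 12 numbered H3K27ac libraries were available, 2 for each genotype at 96 h and at 120 h. All other lists in the comparisons were from wt stembryos (16 for RAD21, 8 for NIPBL, 8 for PolII, 5 for pSer2 PolII, 3 for CDX2, 6 for H3K27me3), except CTCF, for which 2 wt lists (72 h and 168 h) and 1 list each of Del(CBS1), Del(CBS1-2), Del(CBS1-5), Del(CBS2), Del(CBS4) and Ins(2xCBS-d4d8) stembryos were used. Counts over all 59 lists other than H3K27ac also take in 3 RAD21 lists (2 of Del(CBS1) and 1 of Del(CBS1-5)) and 2 H3K27me3 lists of Del(CBS1-5). The mutant lines lack, or for Ins carry in addition, CTCF sites of the HoxD cluster on chromosome 2. The edited lines are homozygous clones made from the wt cells (EmbryoMax 129/SVEV), with Del(CBS1-2) made from Del(CBS1), whereas Del(CBS1-5) cells were derived from blastocysts. Every stage after 72 h in every genotype had received the same Wnt pulse, each library pooled many stembryos, and from 108 h only elongating stembryos had been collected. Most stages of an assay had 1 library. Replicates were biological duplicates of pooled stembryos, only some from separate cultures and without a record here of which, so p-values measure a spread between libraries that may share a culture.

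H3K27ac is a histone mark of active promoters and enhancers. Enhancers act on genes over long distances, and RNA polymerase II (PolII) is often found at them as well as at promoters. Cohesin is a ring-shaped complex that draws DNA into loops and of which RAD21 is a core subunit. NIPBL brings cohesin onto chromatin and drives loop growth, and CTCF, bound to its sites, blocks the advancing loop. The pSer2 form of PolII is the elongating enzyme, H3K27me3 marks chromatin silenced by Polycomb, and CDX2 is a caudal-type transcription factor that acts in the growing trunk and tail downstream of Wnt. During the time course the cells leave pluripotency, pass through a primitive streak-like state and form neural and somitic tissue.

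Sequences of 200 bases on the plus strand of GRCm38 are given for 9 of the regions, because CTCF, PolII or CDX2 set these regions apart in the results that follow. Windows were centred on the summit of the factor, or on the midpoint of the region's core where no factor was called. The first set holds the CTCF summits (168 h list) of the regions nearest to Sorl1, Psmd12 and Epha1, whose H3K27ac changed most between 96 h and 120 h while CTCF was called there in all 8 lists. Capitals mark matches on either strand to 1 of 3 strings taken from the CTCF motif, AGGGGGC, CCCTCNNG and AGNNGGCNC.
Sorl1, chr9:41951202-41951401: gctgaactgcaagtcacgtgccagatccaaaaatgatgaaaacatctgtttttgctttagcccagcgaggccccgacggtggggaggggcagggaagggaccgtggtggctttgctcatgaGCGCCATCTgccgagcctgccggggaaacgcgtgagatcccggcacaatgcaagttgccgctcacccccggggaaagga
Psmd12, chr11:107509718-107509917: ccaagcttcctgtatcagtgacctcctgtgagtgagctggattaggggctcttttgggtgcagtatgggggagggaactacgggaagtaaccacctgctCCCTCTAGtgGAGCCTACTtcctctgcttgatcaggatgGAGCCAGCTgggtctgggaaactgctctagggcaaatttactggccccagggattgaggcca
Epha1, chr6:42380514-42380713: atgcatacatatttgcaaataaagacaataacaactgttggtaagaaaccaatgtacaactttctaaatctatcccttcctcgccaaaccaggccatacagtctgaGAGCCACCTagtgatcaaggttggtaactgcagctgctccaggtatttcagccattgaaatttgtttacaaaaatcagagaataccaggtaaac
The second set contrasts regions with PolII in all 8 lists, nearest to Ptma (144 h PolII summits), with regions with PolII in none, nearest to Arl4c and Cstad. Capitals mark CG, the dinucleotide that is dense in promoters of broadly expressed genes.
Ptma, chr1:86487766-86487965: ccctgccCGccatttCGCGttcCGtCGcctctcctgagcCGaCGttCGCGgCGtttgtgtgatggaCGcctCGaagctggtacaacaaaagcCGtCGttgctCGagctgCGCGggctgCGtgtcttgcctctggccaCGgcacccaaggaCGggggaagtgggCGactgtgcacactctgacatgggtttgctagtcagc
Ptma, chr1:86509584-86509783: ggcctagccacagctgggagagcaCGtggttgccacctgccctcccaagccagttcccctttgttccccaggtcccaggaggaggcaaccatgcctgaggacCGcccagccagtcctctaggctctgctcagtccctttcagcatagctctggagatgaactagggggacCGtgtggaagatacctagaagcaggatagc
Arl4c, chr1:88639909-88640108: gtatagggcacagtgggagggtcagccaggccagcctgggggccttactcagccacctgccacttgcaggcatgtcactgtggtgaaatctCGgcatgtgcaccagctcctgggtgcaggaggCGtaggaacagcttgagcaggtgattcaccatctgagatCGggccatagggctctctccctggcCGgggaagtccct
Cstad, chr2:30626167-30626366: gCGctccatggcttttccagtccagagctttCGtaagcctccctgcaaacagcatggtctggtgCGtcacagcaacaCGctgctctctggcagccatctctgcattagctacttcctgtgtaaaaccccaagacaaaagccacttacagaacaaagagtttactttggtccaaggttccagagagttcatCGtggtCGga
The last set shows CDX2 summits at 96 h. Capitals mark the CDX string TTTATNG on either strand, of which the Gtf3a window held 2 matches and the Spry2 window 0.
Gtf3a, chr5:146920142-146920341: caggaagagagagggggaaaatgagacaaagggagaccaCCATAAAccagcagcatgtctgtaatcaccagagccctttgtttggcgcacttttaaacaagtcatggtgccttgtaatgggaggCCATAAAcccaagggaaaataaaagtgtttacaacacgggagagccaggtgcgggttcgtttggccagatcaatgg
Spry2, chr14:105920967-105921166: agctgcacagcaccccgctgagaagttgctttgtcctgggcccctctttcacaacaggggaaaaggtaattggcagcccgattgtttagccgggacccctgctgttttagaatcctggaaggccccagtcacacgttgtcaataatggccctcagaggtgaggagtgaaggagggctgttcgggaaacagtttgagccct

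Peak lists carry no read totals, so depth was unknown, and the number of regions in a list stands for how much was called. The 9 lists that defined the regions held 24002 to 67663 regions and the 12 numbered H3K27ac lists 50882 to 63020. NIPBL lists ranged from 4888 to 40490 regions, RAD21 lists from 31823 to 71196, PolII lists from 12304 to 20672 and CDX2 lists from 147 to 4501. A region not called in a list need not lack the factor. Marker promoters followed the stages in part. Promoters of all 6 pluripotency markers had H3K27ac at 48 h and 72 h and 3 of 6 at 168 h. Of 6 streak and mesoderm markers 4 had it at 48 h, before the Wnt pulse, and all 6 at 84 h and 96 h, and all 3 somite markers had it from 108 h to 144 h. Neural markers showed no such order, with 1 of 3 at 120 h and 2 of 3 at every other stage, and of 3 endoderm markers all had H3K27ac at 96 h and none at 120 h. Of 4 blood and trophoblast markers, 0 to 2 had H3K27ac at a stage, with Tfap2c called at 6 stages, Elf5 at 3, and Gata1 and Hbb-bt at 0. No 2 H3K27ac lists shared more than 0.0136% of regions with identical ends, so no list repeated another.

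The median length of kept distal regions was 1561.5 bp (360 to 4226 bp), and 456 bp for other distal regions. Merging over more lists lengthens a region, with medians of 338 bp for distal regions in 1 list and 1391.5 bp for those in 8, so that length follows the selection. A base common to all 9 lists existed in 1440 regions (88.9%), and this common core had a median of 334.5 bp. Exons held 5.80% of the kept distal regions, introns 37.5% and intergenic sequence 56.7%, whereas other distal regions were in exons in 4.46%, in introns in 47.6% and in intergenic sequence in 47.9%. The label distal holds for the annotation used. A start listed in RefSeq but not in GENCODE lay within 2.5 kb of 238 kept distal regions (14.7%), against 5.64% of other distal regions. The distance limit cut through a continuum. The 75 kept regions just outside the limit, between 2501 and 3000 bp from a start, had PolII in at least 4 of 8 lists in 54.7%, and the 54 just within it, between 2000 and 2500 bp, in 66.7%. RAD21 in at least 8 of 16 lists was found in 38.7% and 44.4% of these, and NIPBL in at least 4 of 8 in 54.7% and 63.0%. At the other threshold, 1046 distal regions were called in 8 lists, most often without the 48 h list (314 regions) or the 144 h list (284 regions).

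Every factor was called at kept distal regions more often than at other distal regions. Of the latter, 47083 had H3K27ac in only 1 of the 9 lists, whereas the rule gives kept distal regions H3K27ac at every stage. RAD21 was found at 28.0% to 68.6% of kept distal regions (median 47.2%, 16 lists), against 5.90% to 13.7% of other distal regions (median 9.22%). The ranges did not overlap, and the mean shares were 47.1 ± 13.5% and 9.50 ± 2.47% (SD, n = 16 lists, adjusted p = 0.000137, two-sided exact sign-flip permutation test over lists, Benjamini-Hochberg adjustment over 9 readouts). RAD21 peaks that overlapped no region of the 2 wt CTCF lists (72 h and 168 h) are called RAD21 away from CTCF. They can mark cohesin that is not held at CTCF, although regions of the mutant CTCF lists were not excluded. These peaks showed the same order with 23.0 ± 11.9% against 3.14 ± 1.99% (adjusted p = 0.000137, exact permutation test). CTCF was called at 18.0% to 29.8% of the kept distal regions in the 8 lists, against 3.12% to 8.46% of other distal regions (means 24.9 ± 3.98% and 6.08 ± 1.55%, n = 8, exact permutation test, adjusted p = 0.0117). In all of these the kept distal regions were higher in every list.

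PolII gave the widest separation of the factors. Its lists at 72, 84, 96, 108, 120, 132, 144 and 168 h had a region at 63.0, 44.9, 37.4, 32.8, 51.0, 36.5, 56.5 and 47.8% of the kept distal regions, highest at 72 h and lowest at 108 h, against at most 4.25% of other distal regions in any list. The means were 46.3 ± 10.5% and 1.297 ± 1.24% (n = 8, exact permutation test, adjusted p = 0.0117). The elongating pSer2 form was found at 4.14% to 26.5% of the kept distal regions, against 0.316% to 1.73% of other distal regions, higher in 5 of 5 lists. With 5 lists the smallest p an exact permutation test can give is 0.0625, so this comparison could not pass (adjusted p = 0.0703). NIPBL varied most between lists, from 14.3% at 84 h to 78.8% at 144 h, against 1.19% to 16.04% of other distal regions, so that the ranges met, while within every list the kept distal regions were higher (means 50.1 ± 24.2% and 7.69 ± 5.21%, n = 8, exact permutation test, adjusted p = 0.0117).

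**Figure D1:**
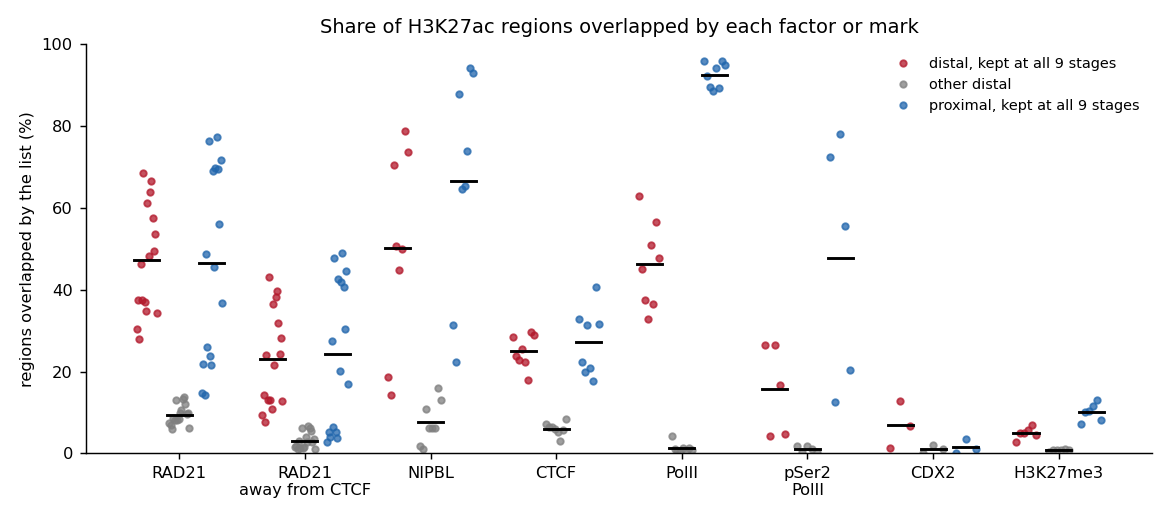
Percent of H3K27ac regions (y axis) overlapped by at least 1 base by a region of each list, for 8 readouts along the x axis, with 1 point per list and a bar at the mean. Kept distal regions (red, n = 1620) lay above other distal regions (grey, n = 79371) for every readout, with means near those of proximal kept regions (blue, n = 10900) for RAD21 and CTCF, and lower means for PolII, NIPBL and H3K27me3.

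Because longer regions are overlapped more often, the shares were also taken over a 1 kb window at each region. The differences between kept distal and other distal regions were then 31.8 percentage points for RAD21 (37.6 over whole regions), 39.0 for NIPBL (42.4), 13.9 for CTCF (18.9) and 43.8 for PolII (45.0), and all 4 passed. With every list shortened to the length of the shortest list of its assay, the differences were smaller, 20.9 points for RAD21, 14.0 for NIPBL, 13.7 for CTCF and 33.3 for PolII, and these passed too. At that length RAD21 away from CTCF differed by 5.85 points (19.9 with whole lists), pSer2 PolII by 4.35 (14.6) and CDX2 by 0.799 (5.89). The excess was also found against the nearest class of distal regions, those called in 8 of 9 lists. PolII was called at 46.3% of the kept distal regions, 19.2% of the distal regions in 8 lists and 0.183% of those in 1 list, as means over lists. The same 3 means were 47.1%, 35.3% and 5.57% for RAD21, 50.1%, 37.9% and 2.996% for NIPBL, and 24.9%, 17.4% and 4.22% for CTCF. For CDX2 the step between kept distal regions and those in 8 lists was small, 6.95% and 6.53%, against 0.252% in 1 list.

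Compared with proximal kept regions, which share the persistence but sit at starts, PolII and NIPBL were lower at the kept distal regions. PolII was called at 46.3 ± 10.5% of them and at 92.5 ± 3.11% of proximal kept regions, lower in 8 of 8 lists (n = 8, exact permutation test, adjusted p = 0.0352), and NIPBL at 50.1 ± 24.2% and 66.5 ± 27.2%, again lower in 8 of 8 lists (n = 8, exact permutation test, adjusted p = 0.0352). RAD21 was called at 47.1 ± 13.5% of kept distal and 46.4 ± 23.7% of proximal kept regions (n = 16, adjusted p = 0.809, permutation test). The direction of this comparison depended on the list. In the 48 h list RAD21 was at 30.4% of kept distal against 14.7% of proximal kept regions, and in the second 132 h list at 66.5% against 77.3%. H3K27me3 was called at 5.04 ± 1.38% of kept distal regions, 10.1 ± 2.096% of proximal kept regions and 0.798 ± 0.220% of other distal regions (n = 6, exact permutation test, adjusted p = 0.0938 and 0.0402). Where regions were called, their heights differed in another order. The median summit pileup, the number of fragments over the summit, of kept distal regions was 0.43 times that of proximal kept regions for PolII (0.34 to 0.53 over 8 lists), 1.00 times for NIPBL, 1.163 times for RAD21 and 1.76 times for CTCF.

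The kept distal regions were unlike each other in PolII. All 8 PolII lists had a region at 383 of them (23.6%), 1 to 7 lists at 852 and no list at 385 (23.8%), whereas 94.1% of other distal regions had PolII in no list. Base composition followed this order. The median number of CpG in a 1 kb window was 34 (quartiles 22 and 49) at the 383 regions with PolII in all lists and 13 (9 and 18) at the 385 with PolII in none, with proximal kept regions at 61 and other distal regions at 11. Windows with over 50% GC and a CpG ratio, observed over expected, above 0.6 made up 110 of the 383 (28.7%), 4 of the 385 (1.04%), 72.1% of proximal kept regions and 0.644% of other distal regions. The GC box GGGCGG, the string bound by SP factors, searched on both strands, occurred in 69.5% of the windows with PolII in all lists, 28.6% of those with PolII in none, 46.9% of all kept distal regions and 19.1% of all distal regions. The ETS string CCGGAAG, also searched on both strands, occurred in 20.4%, 7.01%, 11.4% and 5.59% of the same sets. These are descriptions without a test, since regions are not replicates. A RefSeq start within 2.5 kb was known for 86 of the 383 (22.5%) and for 36 of the 385 (9.35%). Regions with PolII in all lists were intergenic in 67.4%, and those with PolII in none in 43.6%.

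PolII was called less often with distance from the nearest start. These bins are descriptions without a test. Kept distal regions 5 to 10 kb from a start (n = 428) had PolII in at least 4 lists in 52.8%, those at 10 to 50 kb (n = 768) in 44.4%, those at 50 to 100 kb (n = 99) in 30.3% and those over 100 kb away (n = 28) in 14.3%. NIPBL in at least 4 lists was found in 51.9%, 58.1%, 58.6% and 71.4% of the same bins, and RAD21 in at least 8 lists in 45.1%, 47.7%, 52.5% and 39.3%.

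**Figure D2:**
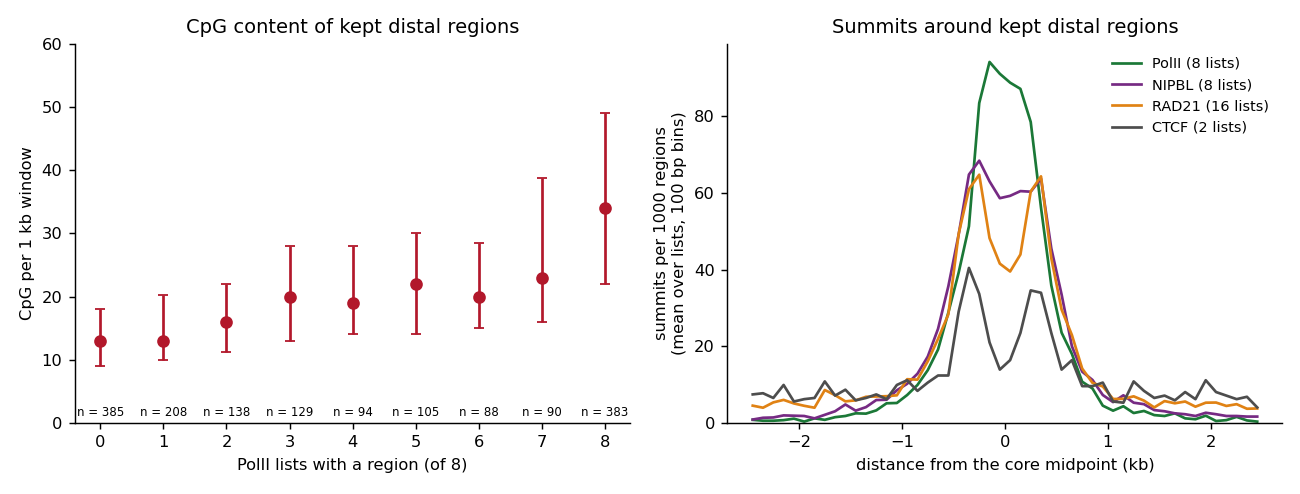
Left, median number of CpG in a 1 kb window (y axis, bars from the first to the third quartile) of kept distal regions by the number of PolII lists with a region (x axis); the median is 13 with 0 lists and 34 with 8 lists. Right, summits per 1000 kept distal regions in 100 bp bins (y axis, means over lists) by distance from the core midpoint (x axis), where PolII peaks near the midpoint and CTCF and RAD21 on both flanks.

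The summits of the factors occupied different places. CTCF summits were sparse at the midpoint of the H3K27ac core, with 13.9 per 1000 regions in the 100 bp bin centred 50 bp upstream, and dense on both flanks, with 40.4 ± 3.93 (SD, n = 2 lists) at 350 bp upstream and 34.6 at 250 bp downstream, upstream and downstream meaning lower and higher coordinates. RAD21 summits had a similar shape, with 39.5 per 1000 at 50 bp downstream, 64.8 ± 23.3 at 250 bp upstream and 64.4 at 350 bp downstream (n = 16). PolII summits had no such gap and reached 94.2 ± 28.1 at 150 bp upstream and 91.1 at 50 bp upstream (n = 8). Other distal regions showed the CTCF gap at a lower level, with 4.65 per 1000 at 50 bp upstream against 14.7 at 350 bp upstream.

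Shares of RAD21, NIPBL and PolII at regions with and without CTCF are given as descriptions without a test. Both wt CTCF lists had a region at 404 kept distal regions, 1 list at 120 and neither at 1096. RAD21 was called in at least 8 of 16 lists at 375 of the 404 (92.8%) and at 288 of the 1096 (26.3%). Without CTCF this share was 1.12% at other distal regions, 16.1% at distal regions in 8 H3K27ac lists and 29.1% at proximal kept regions. Among the 1096 without CTCF, RAD21 reached at least 8 lists in 42.5% of those with NIPBL in at least 4 lists, against 8.12% of those without. NIPBL in at least 4 lists was found at 63.6% of the 404 and 52.8% of the 1096, and PolII in at least 4 lists at 58.9% and 41.1%. At the regions with CTCF, RAD21 summits (second 132 h list) lay a median of 29 bp from the CTCF summit (168 h list, n = 245) and 159 bp from the PolII summit (144 h list). At the regions without CTCF, RAD21 summits lay 98.5 bp from NIPBL summits (144 h, n = 486) and 131 bp from PolII summits (n = 347), and NIPBL summits 137 bp from PolII summits (n = 473). Any of the 3 CTCF strings capitalised above occurred in 182 of 326 windows of 200 bases at CTCF summits of kept distal regions (55.8%), in 40.3% of such windows at other distal regions and in 32.03% of windows at core midpoints of the 1096 regions without CTCF.

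Over single regions, RAD21 was called in any list at 1424 and in all 16 at 271, NIPBL in any at 1483 and in all 8 at 108, and PolII in any at 1235. A total of 39 kept distal regions appeared in no list other than H3K27ac, and the median region appeared in 19 of the 59 other lists, against 0 for other distal regions and 26 for proximal kept regions.

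Across the hours, no readout had a trend that passed. The NIPBL share was 18.6, 14.3, 70.6, 50.6, 44.8, 49.8, 78.8 and 73.6% in the lists of 72, 84, 96, 108, 120, 132, 144 and 168 h. It was lowest at the first 2 stages, in lists of 6652 and 4888 regions, and highest at 144 h, in a list of 40490 regions. The order gave a Spearman rho of 0.74 (exact permutation p = 0.0458) and a Pearson r of 0.76 (p = 0.0279), with adjusted values of 0.183 and 0.112 over 4 readouts, and r was 0.60 without the 72 h and 168 h stages. With every list shortened to an equal length, rho was 0.26. PolII had a rho of -0.05 (exact permutation p = 0.935, r = -0.07, r = 0.43 without those 2 stages). RAD21 stage means had a rho of 0.57 (exact permutation p = 0.151, adjusted 0.202, r = 0.44, r = 0.85 without 48 h and 168 h). The RAD21 libraries carry 2 different label tags, cell type and cell line. Within the tag cell type rho was 0.14 (n = 7, exact permutation p = 0.783), and within the tag cell line, which ends at 144 h, it was 0.89 (n = 7, exact permutation p = 0.0123). Without the 168 h list, which only the first tag has, rho over all libraries was 0.89 (adjusted p = 0.0492, exact permutation test).

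**Figure D3:**
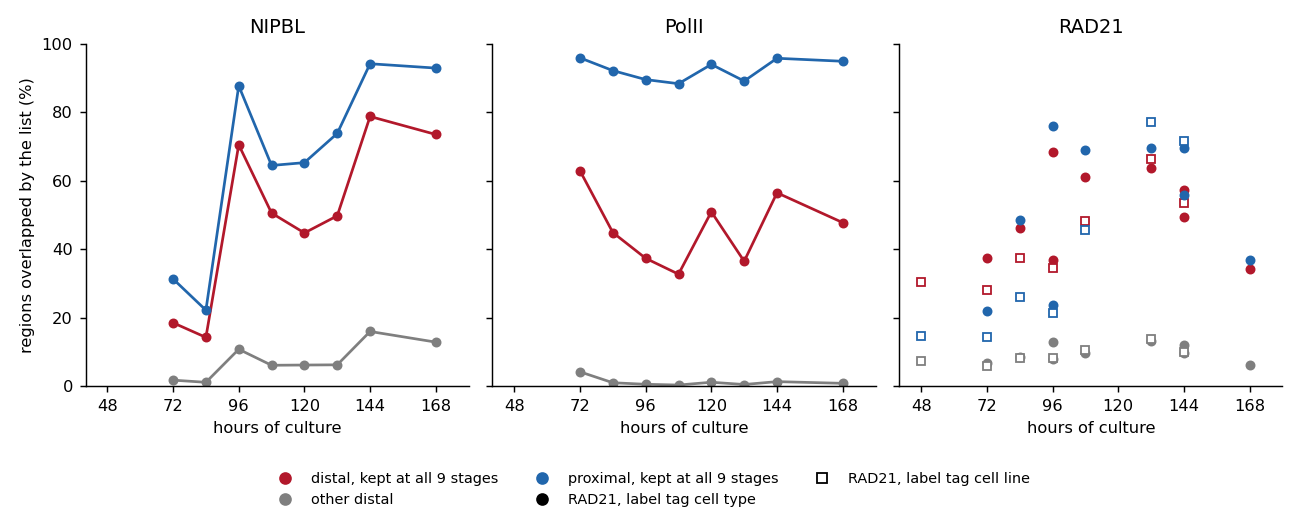
Percent of regions overlapped (y axis) against hours of culture (x axis) for NIPBL, PolII and RAD21, with kept distal regions in red, other distal in grey and proximal kept in blue, and 1 point per list. Filled RAD21 points carry the label tag cell type and open squares the tag cell line; NIPBL of kept distal regions moves between 14.3% and 78.8% in parallel with proximal kept regions.

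Although called at every stage, many kept distal regions changed in height. The 12 numbered H3K27ac libraries, which had no part in the choice, had a region at 97.4 ± 1.159% of them (n = 12), against 25.04% of other distal regions. Summit pileups were compared between 120 h and 96 h in 1414 kept distal regions called in all 12 lists, while 206 were not tested. With limma on log2 pileups centred per library and adjustment over all 17523 regions tested, 500 kept distal regions were higher and 279 lower at 120 h, 55.1% in all. Of all regions tested 41.4% were called, 21.7% higher and 19.7% lower. The share was 27.1% of 9926 proximal kept and 65.6% of 4317 other distal regions, counting only those called in all 12 lists. The median size of the change, regardless of sign, was 0.33 on the log2 scale at kept distal regions, 0.23 over all regions and 0.16 at proximal kept regions, and 127 kept distal regions moved by more than 1. The split between higher and lower rests on the centring. With heights scaled to the lowest background of each library instead, which moved the median of all regions by -0.22, 310 were higher and 491 lower. That is 56.6% of kept distal regions, beside 54.3% of all regions tested and 46.7% of proximal kept regions, so that the excess over all regions in called shares also rests on the centring. The width of the distribution does not, since scaling moves all regions alike. From the 5th to the 95th percentile the log2 change ran between -0.79 and 1.08 at kept distal regions and between -0.44 and 0.49 at proximal kept regions. A lower pileup can come from fewer cells carrying the mark or from less of it per cell, and these cannot be told apart in pooled stembryos.

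Subsets by PolII and CTCF are given without a test. Of all regions tested 41.4% were called, 21.7% higher and 19.7% lower. The share with PolII in all lists lay near this. Regions beyond 1 were not counted over all regions, and the split between higher and lower rests on the centring. Of the regions with PolII in all 8 lists, 41.2% were called (94 higher and 59 lower of 371, 6 beyond 1 on the log2 scale), against 62.2% of those with PolII in 1 to 7 lists (277 and 178 of 732, 97 beyond 1) and 55.0% of those with PolII in none (129 and 42 of 311, 24 beyond 1). With CTCF in both wt lists 45.2% of 347 were called, and with CTCF in neither 58.3% of 957.

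**Figure D4:**
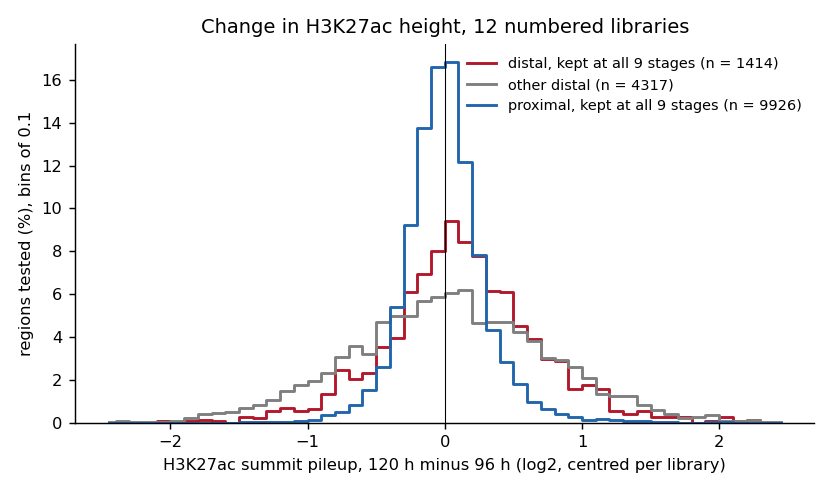
Distribution of the change in H3K27ac summit pileup between 120 h and 96 h (x axis, log2, centred per library) in the 12 numbered libraries, as percent of the regions tested in bins of 0.1 (y axis). Kept distal regions (red, n = 1414) spread more widely than proximal kept regions (blue, n = 9926) and less than other distal regions (grey, n = 4317).

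The largest rises lay at 5 regions, each named by its nearest protein-coding gene, which need not be its target. Pileups in the 9 unnumbered lists, from which the regions were chosen, are given beside the tested values as descriptions only, with 1 list a stage and no scaling. The median of kept distal regions in these lists was 29 to 51 fragments. An intronic region 156.9 kb from the start of Macrod2, a mono-ADP-ribosyl hydrolase (chr2:142333473-142336228), had a pileup of 62 to 129 (median 96.5) in the 6 libraries at 120 h, against 20 to 31 (median 24) in the 6 at 96 h, a log2 change of 2.21 ± 0.11 (SE, limma adjusted p = 1.49e-10). In the unnumbered lists it had 69, 21, 29 and 77 fragments at 48, 84, 96 and 120 h. The region near Slc44a3, a choline transporter-like protein (chr3:121576668-121577923), had 32 to 71 (median 60.5) in the numbered libraries at 120 h against 13 to 18 (median 14) at 96 h (log2 change 2.12), and 120, 17 and 58 fragments in the unnumbered lists at 48, 84 and 120 h. The regions near Gm3646 (chr1:39771741-39773660, log2 change 2.07) and near Tnrc6a, a protein of microRNA silencing (chr7:123097284-123099077, log2 change 2.04), had 72 and 82 fragments in the unnumbered list at 48 h, 22 and 24 at 84 h, and 62 and 58 at 120 h. None of these 4 had CTCF in either wt list. The fifth region was 22.4 kb from the start of Sorl1, a sorting receptor (chr9:41950122-41952144), and had CTCF in 8 of 8 lists and RAD21 in 16 of 16. Its pileup was 50 to 87 (median 67.5) at 120 h against 13 to 26 (median 16) at 96 h, with 25 fragments at 48 h and 106 at 168 h in the unnumbered lists (log2 change 2.21 ± 0.16, SE).

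The largest falls included 2 regions with CTCF in all 8 and RAD21 in all 16 lists. One lay 29.5 kb from the start of Psmd12, a subunit of the proteasome lid (chr11:107509038-107512027), and had 16 to 36 fragments (median 23.5) at 120 h against 99 to 152 (median 109) at 96 h, a log2 change of -2.06 ± 0.11 (SE, limma adjusted p = 2.44e-10). In the unnumbered lists it had 165, 178, 143, 142 and 37 fragments at 48, 72, 84, 96 and 108 h and 22 to 24 from 120 h on. The other, 7.31 kb from the start of Epha1, an ephrin receptor (chr6:42380574-42382291), had 31 to 57 fragments (median 38.5) at 120 h against 137 to 191 (median 173.5) at 96 h (log2 change -1.80). The unnumbered lists had 29, 131, 195 and 38 fragments at 48, 72, 96 and 108 h. The other 3 falls, with pileups of the unnumbered lists in brackets, lay near Spred2, an inhibitor of Ras signalling (chr11:19811406-19812504, 16, 141 and 20 fragments at 48, 72 and 120 h, log2 change -1.80), near Ddx10, an RNA helicase (chr9:53256704-53259243, 38, 102 and 18 fragments at 48, 96 and 120 h, log2 change -1.76), and near Isl1, a LIM homeodomain factor (chr13:116522438-116524501, 15, 55 and 25 fragments at 48, 96 and 120 h, log2 change -1.63). The pileups at 120 h and 96 h did not overlap for any of the 10 regions, which the choice of the largest changes makes likely. The share of regions without overlap among all regions tested was not counted.

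**Figure D5:**
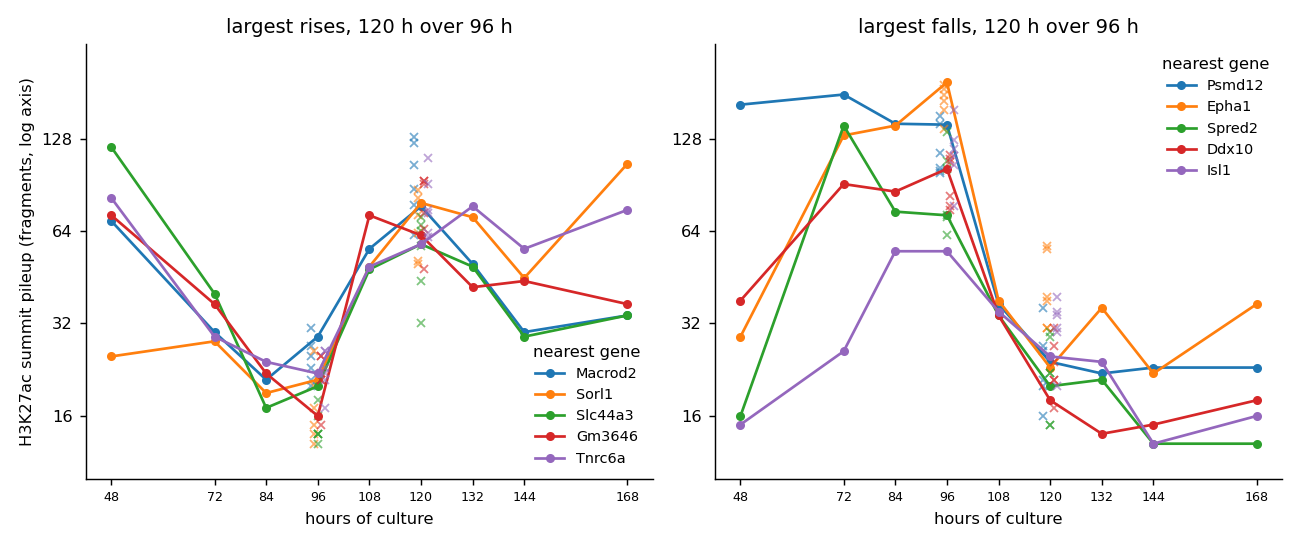
H3K27ac summit pileup in fragments (y axis, log scale) against hours of culture (x axis) for the 5 kept distal regions with the largest rise (left) and the largest fall (right), named by nearest gene. Lines join the 9 unnumbered wt lists and crosses are the 12 numbered libraries; the Psmd12 region stands at 142 at 96 h and at 37 at 108 h.

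Of the 5 longest regions, 3 were called changed between 120 h and 96 h, beside 55.1% of kept distal regions and 41.4% of all regions tested. The region near Zfp64, a zinc finger protein (chr2:168838401-168842626, 4226 bp), had 53 to 105 fragments at 120 h and 74 to 118 at 96 h (log2 change -0.16, adjusted p = 0.225), and that near Ddx3x, an RNA helicase of the X chromosome, 73 to 134 and 99 to 162 (log2 change -0.11, adjusted p = 0.358). Both spans overlapped. Raw pileups were lower at 120 h in many regions, and the centring removed this common shift. Of the other 3, the region near Cpa5, a carboxypeptidase, rose (log2 change 1.19), and those near Tesk2, a kinase, and Btg2, an antiproliferative protein, fell (log2 changes -0.56 and -0.30). Their spans overlapped as well. At 120 h and 96 h they were 107 to 253 and 67 to 138 for Cpa5, and 47 to 105 and 85 to 178 for Tesk2. For Btg2 they were 82 to 169 and 148 to 227.

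Differences between the lines lacking HoxD CTCF sites and wt at kept distal regions depended on the scaling. This held for the direction in both lines and for the number in Del(CBS1-2). In Del(CBS1) against wt, 28 regions were higher and 74 lower (7.21% of 1414), beside 5.27% of all regions tested. In Del(CBS1-2) against wt, 30 were higher and 174 lower (14.4%), beside 15.8% of all regions. Both shares lay near the background with the centring used. The directions were not stable. With scaling to the lowest background, 87 were higher and 33 lower in Del(CBS1), and 409 higher and 35 lower in Del(CBS1-2). These are 8.49% and 31.4% of kept distal regions, beside 7.84% and 46.3% of all regions tested. The counts also depended on single libraries, with 42 to 100 called in Del(CBS1) and 79 to 200 in Del(CBS1-2) when 1 library was left out. The 42 came without the second wt library at 120 h and the 79 without the second Del(CBS1-2) library at 96 h. The Del(CBS1-2) libraries carry the tag cell line and the others the tag cell type, so that genotype and tag cannot be told apart there.

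CDX2 was called at 1.296%, 12.9% and 6.67% of kept distal regions at 72, 96 and 120 h, against 0.0592%, 2.1003% and 1.02% of other distal regions and at most 3.47% of proximal kept regions. It was higher at kept distal regions in 3 of 3 lists, and 3 lists allow no exact permutation p below 0.25. The list lengths, 147, 4501 and 2272 regions, followed the same order. With the centring used, more of the CDX2 regions were called lower than higher at 120 h. Leaving out 8 regions described further on, 86 kept distal regions had CDX2 at 96 h and 120 h, and of 84 tested 15 rose and 37 fell at 120 h. Of 107 tested with CDX2 at 96 h only, 22 rose and 43 fell, whereas of 1202 with CDX2 at neither stage 455 rose and 195 fell. Median log2 changes were -0.21, -0.07 and 0.15 in the 3 sets. Of the 14 with CDX2 at 120 h only, 7 rose and 2 fell. No test was made between these sets. Of all regions tested, with or without CDX2, 21.7% were called higher and 19.7% lower at 120 h. The split between higher and lower rests on the centring and was not counted by set under the other scaling. Changes at CDX2 regions outside the kept distal regions were not counted, so whether this order is particular to kept distal regions was not tested. The string TTTATNG, searched on both strands in 200 bases at the summits, was found in 56 of 181 windows of kept distal regions at 96 h (30.9%) and in 42.2% of those of other distal regions, and in 37 of 93 (39.8%) and 52.0% at 120 h. In 1 kb windows it was present in 33.6% of kept distal and 41.96% of all distal regions.

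The region with the strongest CDX2 outside those 8, chosen after the values were seen, lay 22.8 kb from the start of Spry2, a feedback inhibitor of FGF signalling (chr14:105919606-105921081). CDX2 pileup there was 70 fragments at 96 h and 48 at 120 h, and PolII and NIPBL were called in all 8 lists. Its H3K27ac pileup was 98 to 176 (median 112.5) at 120 h and 158 to 248 (median 195.5) at 96 h, with overlap between the stages (log2 change -0.42 ± 0.09, SE, limma adjusted p = 0.000913). Next came regions near Osbpl10, an oxysterol-binding protein, Gtf3a, the transcription factor of the ribosomal 5S genes, Sp8, a zinc finger factor of the limb and tail bud, and Sox13, an SRY-related factor. Their log2 changes were -0.76, -0.80, -0.56 and -0.30. Of these only the Gtf3a pileups did not overlap, with 62 to 138 at 120 h against 153 to 243 at 96 h. These pileups are raw, and raw pileups were lower at 120 h in many regions. The share of regions without overlap among all regions tested was not counted, so this is a description of 1 region.

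A small set of kept distal regions was called for nearly everything. At 8 regions, all 8 H3K27me3 lists (2 of Del(CBS1-5), 6 of wt) and all 3 CDX2 lists had a region, and 53 to 59 of the 59 lists other than H3K27ac did. Only 10 of 79371 other distal regions and 15 of 10900 proximal kept regions were like this. They were short, 360 to 1538 bp, and lay nearest to Filip1l, Gm21738, Lars2, Ly6c2, Axin2, Vmn1r238, E030030I06Rik and Polr3k. The CDX2 pileup at these regions was 0.963 to 19.7 times the median of the list, as a median over lists for each region, and that of CTCF 1.10 to 7.75 times. They filled the places of the 5 regions present in the most lists and of the 5 with the highest CDX2 q-values. The region near Gm21738 (chr14:19415740-19416166) had repeat-masked sequence over 82.3% of its window, that near Lars2 (chr9:123461811-123462170) over 4.40%. No input library was used here, and how far these regions reflect the antibodies was not tested. Without them, a choice made after the values were seen, CDX2 was at 0.806%, 12.5% and 6.20% of kept distal regions at 72, 96 and 120 h, H3K27me3 at a mean of 4.57%, and RAD21, NIPBL, CTCF and PolII at 46.9%, 49.9%, 24.6% and 46.0%.

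The kept distal regions were spread over many genes. They were nearest to 1309 of 21911 protein-coding genes (5.97%), 1071 of which had 1 region, 182 had 2 and 56 had at least 3. The median distance to a protein-coding start was 20.8 kb, against 31.1 kb for other distal regions. The nearest gene had a proximal kept region at its promoter in 1068 cases (65.9%), against 59.3% for other distal regions and 47.7% of all protein-coding genes. Of the regions, 1377 stood alone, and 243 (15.0%) fell in 113 runs with gaps of at most 20 kb.

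The most regions at a gene were 5. At Ptma, which encodes the abundant nuclear protein prothymosin alpha, 5 regions stood within 23.7 kb (chr1:86486727-86510390), between 16.3 and 39.3 kb from its start. All had PolII in 8 of 8 lists, and both wt CTCF lists had a region at the last 2. Of the 5, 1 changed in H3K27ac between 120 h and 96 h, by a log2 of 0.22 (adjusted p = 0.0414). The printed windows of these regions held 21 and 3 CpG, and those of the Arl4c and Cstad regions without PolII 4 and 6. At Cuedc1, a CUE domain protein, 5 regions were spread over 87.9 kb with PolII in all lists at 1 and no CTCF in both wt lists, and 3 of them rose, by 0.61, 0.84 and 1.09. At Zfp608, a zinc finger protein beside a long stretch without genes, the 5 regions lay 5.68 to 700.5 kb from the start, and those over 200 kb away included 2 with PolII in no list. At Arl4c, a small GTPase, 1 of 4 regions fell by a log2 of -1.23 and 2 rose (0.33 and 0.80). At Cstad, 3 of 4 rose, by 0.37, 0.95 and 0.96, and 1 fell by 0.51. Regions of 1 gene thus moved in different directions at Arl4c and Cstad. These counts stand beside 41.4% called of all regions tested and 55.1% of kept distal regions, and were not tested by gene. Scaling to the lowest background lowers every log2 change alike, by about the size of the Ptma change, so the smaller rises rest on the centring.

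In the list of pluripotency genes that stay active into the epiblast, 9 of 18 genes had at least 1 kept distal region, beside 5.97% of all protein-coding genes (12 regions, among them 3 near Sall4 and 2 near Zfp281, both zinc finger factors of stem cells, 1 near Epcam and 1 near Jarid2). Of all distal regions near these genes 3.45% were kept, beside 2.00% over all genes. Of the 16 naive pluripotency genes, 1 had a kept region (Nanog, 0.588% of its list's distal regions). In the FGF list 6 of 19 genes had 11 regions, 4.15% of the distal regions there, with 3 near Spred2, 3 near Spry2, 2 near the receptor Fgfr1 and 1 near the phosphatase Dusp4, of which the Spred, Spry and Dusp proteins are feedback inhibitors. In the Wnt list 6 of 24 genes had 10 regions (2.47%), with 3 near Lef1, a nuclear effector, and 2 each near the feedback inhibitors Axin2 and Nkd1. One of the 2 near Axin2 is among the 8 regions called for nearly everything. The chromatin and cohesin list had a kept region at 6 of 26 genes (4.64%), among them Chd4, Arid1a and Ctcf itself, and all 26 promoters were kept. In the lineage and other lists the counts were 1 of 15 for the primitive streak (Sp8, 2 regions), 5 of 20 for somites (2 each near Notch1 and Pax7), 4 of 17 for neural genes (2 near Sox1), 2 of 17 for cardiac and vascular genes, 2 of 14 for endoderm (2 regions near Sox17), 2 of 11 for the formative epiblast (3 regions near Lef1), 1 of 11 for microRNA hosts and processing (Lin28b) and 5 of 69 for ribosomal proteins (3.86% of the distal regions there). Among 42 Hox and Cdx genes 1 had a kept distal region, Hoxb1, and with 59 other distal regions in the list 1.67% were kept, beside 2.00% over all genes. No test was made on the lists, which were chosen with earlier results of these data known. The share of genes with a kept region does not allow for how many distal regions a gene has, whereas the share of distal regions kept does. Kept shares were 1.852% for the primitive streak, 2.602% for somites, 2.101% for neural genes and 1.408% for cardiac and vascular genes. They were 2.703% for endoderm, 3.008% for the formative epiblast and 2.857% for microRNA hosts and processing, beside 2.00% over all genes. The neural share thus lay near that of all genes, although 4 of 17 neural genes had a kept region.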

How the data were processed

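Peak lists of 80 libraries were used, of which this account draws on those of H3K27ac, RAD21, NIPBL, CTCF, PolII, pSer2 PolII, CDX2 and H3K27me3. Per the methods of the study and the submitters' processing notes, the authors trimmed reads with cutadapt 1.16, mapped them to mm10 with Bowtie2 2.3.4.1, kept proper pairs of mapping quality 30 or more with SAMtools 1.8 and called peaks with MACS2 2.1.1.20160309 on each library alone without input (3 samples of pSer2 PolII at 144 h had been pooled). H3K27ac, H3K27me3, CDX2 and pSer2 PolII were assayed by ChIP, the others by ChIPmentation, in which Tn5 adds the adapters. The deposited lists give for each peak the fold enrichment (a ratio, pileup plus 1 over local background plus 1) together with the −log10 p-value and the −log10 q-value, all as the authors' caller wrote them.

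Peaks sharing a region were merged, 21 assembled chromosomes were used, and an overlap of 1 base counted. Pileups were solved from the deposited fold and −log10 p-value as whole numbers within 0.001, for at least 97.8% of peaks in a list. Kept distal, other distal and proximal kept regions, and their shares, were computed with Python 3.11.15 (pandas 2.3.3, numpy 2.4.6, scipy 1.17.1). Shares were compared by exact sign-flip permutation over lists. Pileups of the 12 numbered libraries were fitted with limma 3.58.1 (R 4.3.3) on genotype and stage, with a threshold of 0.05, after a check on simulated data. Sequence was counted in 1 kb windows. RefSeq starts were taken from its GRCm38 annotation. The regions and gene lists were chosen with earlier results of these data known. Named were the 5 genes nearest to the most regions, the 5 largest rises and 5 largest falls with the same sign in 3 genotypes, the 5 longest, the 5 in the most lists, the 5 with the highest CDX2 q-value at 96 h among those with CDX2 at 96 h and 120 h, and up to 4 genes a list. Alternatives changed the distance, q threshold, list length, window, scaling, filter and libraries.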

Additional observations from a re-analysis of the deposited data

How the results depend on the processing

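All differences between kept distal and other distal regions kept their direction in the 139 settings tried, and 128 also kept the side of the threshold. Of 1620 regions, 657 remained with −log10 q of at least 5, 345 where each list covered at least 50% of the region and 696 at equal list length, and 1645 to 1936 were chosen without 1 stage. H3K27me3 lost its call against distal regions in 8 lists (difference 1.09, or 0.396 over 1 kb, a setting chosen after the data were seen) and without any 1 list (3.91 to 4.62, fewer lists).

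Replicate numbers did not pair the libraries (15 correlations of replicate differences, -0.0484 to 0.0871). With the replicate number as a block, RAD21 differed by 36.7 points and RAD21 away from CTCF by 19.0 (3 values each), and H3K27ac by 72.4 (2 values), too few to pass, and 477 higher and 271 lower regions were called between 120 h and 96 h.

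Against proximal kept regions, with −log10 q of at least 5 and at equal list length the differences were 4.68 and 6.05 for RAD21 and -5.24 and -9.86 for numbered H3K27ac, all past the threshold, 0.960 and 1.06 for RAD21 away from CTCF and 1.41 and 2.98 for CTCF, both of which turned positive (main -1.28 and -2.20). H3K27me3 passed at equal list length (-4.09). Without 1 list RAD21 ranged from -0.317 to 1.95, NIPBL from -17.6 to -15.3 and PolII from -48.2 to -44.9, the last 2 above the threshold because fewer lists remain. The rho of PolII ranged from -0.25 to 0.43, and those of RAD21 and RAD21 away from CTCF from 0.36 to 0.89, the highest without 168 h.

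Between 120 h and 96 h, wt libraries alone called 424 regions (256 higher, 168 lower), Del(CBS1) alone 467 (289 and 178) and Del(CBS1-2) alone 498 (355 and 143), with fewer samples in each. The mutant splits were chosen after the data were seen. Scaling by the lowest background gave 310 and 491. Leaving out 1 library gave 726 to 754, with 458 to 487 higher and 262 to 278 lower. For Del(CBS1) minus wt, that scaling gave 87 higher and 33 lower, calls in at least 8 of 12 lists 54 and 24, and leaving out 1 library 8 to 27 and 34 to 73 (42 to 100 in all); each Del(CBS1) library at 120 h (65 and 47), each wt library at 120 h (54 and 42), the first Del(CBS1) library at 96 h (60) and the second wt library at 96 h (67) moved the total by over 1.5 times. For Del(CBS1-2) minus wt, the scaling gave 409 and 35 (444 in all), the filter 128 and 54, and leaving out 1 library 12 to 30 and 67 to 171 (79 to 200 in all); each Del(CBS1-2) library at 96 h (112 and 79), each wt library at 96 h (93 and 115) and the second wt library at 120 h (126) did so. The cause was not tested. Apart from the scaling, whose shares over all regions are given above, these counts have no such share beside them. They show how calls move with the setting, and not whether kept distal regions differ from other regions. The 10 named changes kept sign and call in all 190 settings. They had been chosen as the largest called changes with the same sign in every genotype, from the same numbered libraries that these settings reuse. Keeping sign and call was therefore largely fixed by the choice, and is no independent test of the 10 changes.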
